A study of Mus musculus with 9 samples.

Results

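Pi16 and Cd248 adventitial-like fibroblasts were picked out of mouse heart nuclei by the genes detected in each nucleus. A member carried at least 1 unique molecular identifier (UMI, the tag that counts 1 captured RNA molecule) for at least 2 of the 4 adventitial genes Pi16, Cd248, Dpp4 and Sema3c, and for at least 2 of the 6 fibroblast genes Col1a2, Col3a1, Dcn, Pdgfra, Fbln1 and Gsn. It carried at most 2 of the 6 injury genes Tnc, Adam12, Ltbp2, Postn, Cxcl5 and Kif26b, and at most 1 of the 5 genes of other lineages Pecam1, Cdh5, Ptprb, Tmem108 and Csf1r. The rule found 891 members among 49171 nuclei. They were set beside 8649 other fibroblast nuclei, which passed the same limits, carried at most 1 adventitial gene and scored as fibroblasts by marker genes.

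The study asked how a traditional Chinese medicine, Shexiang Baoxin Pill (SBP), changes the cells of the heart after myocardial ischemia-reperfusion (I/R). Hearts of 9 C57BL/6 mice were frozen, nuclei were isolated, and their RNA was sequenced with 10x 3′ single-nucleus libraries, 1 library per mouse and 3 mice per group. The paper places all of this tissue below the site of ligation. In the sham group, 7 days of vehicle gavage were followed by an operation in which the needle was passed and nothing was tied. The I/R group had the same 7 days of vehicle, then 30 min of ischemia by ligation of the left anterior descending artery, and 24 h of reperfusion. The SBP group, labelled MUSKARDIA, was given the pill in place of vehicle for 7 days and had the same 30 min of ischemia and 24 h of reperfusion. The sources used here do not give the hour of the day at which hearts were taken.

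Adventitial fibroblasts lie in the outer coat of larger vessels and in connective tissue septa, and a Pi16- and Dpp4-positive state of this kind recurs across mouse organs, where it is regarded as a reserve of precursor-like fibroblasts. Pi16 encodes a peptidase inhibitor, Cd248 the surface glycoprotein endosialin, Dpp4 a surface peptidase that trims peptides and chemokines, and Sema3c a secreted semaphorin. In the heart these cells sit apart from the resting interstitial fibroblasts between muscle cells and from the matrix-producing fibroblasts that arise in injured muscle.

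Each library held 4576 to 6418 nuclei and 10329520 to 18205985 UMIs, with a median of 1540 to 2031 UMIs per nucleus. Members numbered 85, 128 and 106 in the sham mice, 103, 68 and 44 in the I/R mice, and 117, 111 and 129 in the SBP mice. Their summed RNA was 144921 to 357764 UMIs per mouse. The median member carried 2363 UMIs, more than the 1774 of other fibroblasts, and a deeper nucleus meets a rule of detection more easily. The same cell barcode occurred in more than 1 library for 580 nuclei, of which 3 were members, and no 2 members shared one.

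A few libraries stood apart. Of the markers of cardiomyocytes, 8 of 8 were detected in members (highest for the giant sarcomere protein gene Ttn, none at 0). Their sum came to 14053 CPM (UMIs scaled to a library total common to all samples) in the members of I/R replicate 1. It was 1998 and 4225 CPM in those of I/R replicates 2 and 3. The range was 3854 to 11635 CPM in sham members and 2278 to 5468 CPM in SBP members. In other fibroblasts the same sum was 4692 to 5734 CPM in sham, 1542 to 2576 CPM in I/R and 1723 to 2144 CPM in SBP mice. Of 13 tested genes on a list of glucocorticoid-responsive and stress genes, 9 were lower in sham replicate 2 than in the other sham mice and 3 were higher. Its members held 253.6 CPM of Fkbp5, a co-chaperone of the glucocorticoid receptor, against 1303 and 826 CPM in the other sham mice. Results are given without these libraries where that changes a call.

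The label was checked against the markers. Pi16 was detected in 823 members (92.4%), Sema3c in 639 (71.7%), Dpp4 in 334 (37.5%) and Cd248 in 177 (19.9%). The pair of Pi16 with Sema3c was present in 581 members (65.2%), Pi16 with Dpp4 in 278, Dpp4 with Sema3c in 177 and Pi16 with Cd248 in 152. Exactly 2 of the 4 genes were detected in 716 members (80.4%), 3 in 159 and all 4 in 16. Most members thus entered through Pi16 and Sema3c, and Cd248 was the least often detected of the 4.

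The members' class was then read from marker lists of cell types. Each nucleus took the class whose markers exceeded their average share of UMIs by most, or none. The fibroblast list held the same 6 fibroblast genes as the rule, so this score is no independent check of the label. By this measure 660 members (74.1%) scored as fibroblasts and 180 (20.2%) as no class. Another 22 scored as cardiomyocytes, 10 as myeloid cells, 7 as smooth muscle cells or pericytes, 4 as endothelial cells, 4 as T cells, 2 as B cells, 1 as mesothelial and 1 as lymphatic endothelial. None scored as Schwann cells or adipocytes. The fibroblast part was 57.6%, 63.3% and 77.4% in sham members, 73.8%, 75% and 95.5% in I/R, and 69.2%, 81.1% and 83.7% in SBP members. It was lowest in sham replicates 1 and 2, and the groups overlapped. Of the defining markers of other cells, T cell Cd2, Schwann cell Sox10, mesothelial Upk3b, Krt19, Lrrn4 and Krt8, and adipocyte Adipoq, Plin1 and Cidec were at 0 in all members. Summed markers of mesothelial and of T cells were highest in I/R replicate 1. Its mesothelial Muc16 and Msln stood at 53.2 and 47.3 CPM and were at 0 in every other mouse, and its T cell genes Skap1 and Themis stood at 85.8 and 32.5 CPM. The highest sums in I/R were 118 CPM for mesothelial and 127 CPM for T cell markers, against at most 6.19 CPM for either in sham members.

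Membership depended on where the limits lay. With 1 adventitial gene in place of 2 and all else equal there were 3791 nuclei, of which 58.7% scored as fibroblasts. Among members, 653 carried none of the 6 injury genes, 196 carried 1 and 42 carried 2. Just outside that limit, 21 nuclei carried 3 injury genes, 1 of them from a sham, 10 from an I/R and 10 from an SBP heart. At the limit on other lineages 239 members carried 1 such gene, while 74 nuclei that carried 2 were left out. At the lower limit on fibroblast genes 147 members carried 2, while 58 nuclei that carried 1 were left out.

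The same genes were sought in nuclei of other classes. A Pi16 UMI was found in 18.5% of other fibroblasts, in 3.81% of cardiomyocytes (median 4486.5 UMIs) and in 7.74% of endothelial nuclei (median 1275 UMIs). Sema3c was found in 4.27% of other fibroblasts (median 1774 UMIs), in 1.28% of myeloid nuclei (median 1748 UMIs) and in 5.56% of the deeper cardiomyocytes. At least 2 of the 4 adventitial genes were present in 0.339% of cardiomyocytes, 0.175% of myeloid nuclei and 1.23% of endothelial nuclei outside the members.

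The 4 adventitial genes and the fibroblast genes chose the members, and their levels are given as a description. Pi16 (GRCm38 chr17:29317680-29330593, plus strand) stood at 1891, 1311 and 1556 CPM in sham, 1023, 891 and 609 CPM in I/R, and 1381, 950 and 1308 CPM in SBP members. All I/R values lay below all sham values, while SBP values overlapped both. In other fibroblasts Pi16 stood at 309, 246 and 231 CPM in sham, 196, 225 and 80.9 CPM in I/R, and 279, 125 and 189 CPM in SBP mice, with the I/R values again below all sham values. The median over the 9 mice of the log2 difference between members and other fibroblasts of the same heart was 2.60 for Pi16, 3.16 for Cd248 (chr19:5068078-5070682, plus strand), 4.05 for Dpp4 (chr2:62330073-62412231, minus strand) and 3.78 for Sema3c (chr5:17574281-17730268, plus strand). Dcn, which encodes the collagen-binding proteoglycan decorin, was listed among the markers but was lower in members, with a median log2 difference of -0.71, and lower in 9 of 9 mice. Other fibroblasts had to score as fibroblasts on Dcn and the other fibroblast genes of the rule, while members did not. The part of this in the differences of these genes was not tested. Among members that scored as fibroblasts the median for Dcn was -0.30. The collagen I gene Col1a2 was lower in 8 of 9 mice (median -0.56), and Col3a1 (-0.14), Pdgfra (-0.34) and Gsn (-0.03) lay nearer to 0. In members that scored as fibroblasts the medians were -0.23 for Col1a2, 0.33 for Col3a1, -0.10 for Pdgfra and 0.28 for Gsn. Gsn was then higher in 8 of 9 mice.

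Members were a smaller share of nuclei after I/R than in sham hearts, and a larger share with SBP than after I/R without it, with no overlap between the mice compared. Of all nuclei, members made up 1.86%, 2.16% and 1.92% in sham hearts, 1.60%, 1.31% and 0.776% in I/R, and 2.31%, 1.95% and 2.52% in SBP hearts. The 95% Wilson intervals of the lowest and highest of these 9 shares were 0.578 to 1.04% and 2.12 to 2.98%, which cover counting error only. The group means were 1.98% ± 0.162 in sham hearts, 1.23% ± 0.420 in I/R and 2.26% ± 0.285 in SBP hearts (SD, n = 3 mice each).

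**Figure D1:**
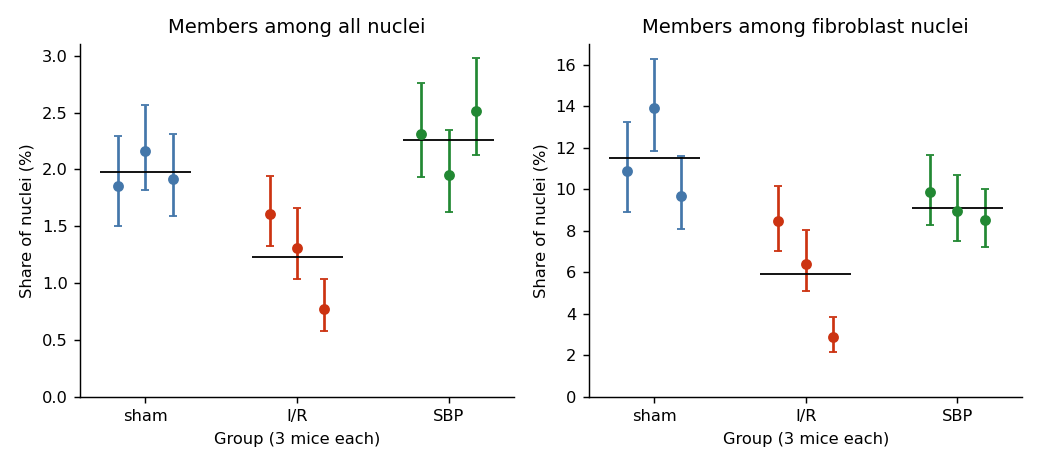
Members as a percentage of all nuclei (left) and of all fibroblast nuclei (right) in each mouse of the sham, I/R and SBP groups. Points are mice, vertical bars 95% Wilson intervals and horizontal lines group means. In both panels the 3 I/R mice lie below the 3 sham and the 3 SBP mice, with means of 1.23% and 5.93%.

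The I/R mean was 0.622 times the sham mean (log2 -0.69), and the SBP mean was 1.84 times the I/R mean (log2 0.88). The exact permutation test gave p = 0.1 (two-sided) for both, which is the smallest value that 3 mice against 3 can give. SBP and sham shares overlapped, with a ratio of 1.14 and an exact permutation p = 0.2. Of fibroblast nuclei, that is members, other fibroblasts and 992 injury-activated fibroblasts, members made up 10.9%, 13.9% and 9.69% in sham hearts, 8.46%, 6.42% and 2.90% in I/R, and 9.85%, 8.97% and 8.50% in SBP hearts. I/R replicate 3 was the lowest of all 9 mice by this measure too, and the I/R mice overlapped neither other group, with an exact permutation p = 0.1 for I/R against sham and for SBP against I/R. Against sham the SBP share of fibroblast nuclei was lower rather than higher, with a log2 ratio of -0.34, overlap and an exact permutation p = 0.2. Injury-activated fibroblasts enter that denominator. They numbered 0, 0 and 1 in the sham mice, 298, 198 and 94 in I/R, and 116, 196 and 89 in SBP mice. I/R and SBP mice overlapped in this count. The lack of overlap in the share of fibroblast nuclei depended on counting these nuclei. Beside other fibroblasts alone, I/R replicate 1 had 103 members to 816. That ratio exceeds those of sham replicates 1 (85 to 696) and 3 (106 to 987). It also exceeds those of every SBP mouse (117 to 955, 111 to 930 and 129 to 1299).

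The share was also computed at equal depth and under stricter or altered rules. With each nucleus thinned to 1000 UMIs (2405 sham, 1739 I/R and 1782 SBP nuclei were too shallow and left out) the mean shares were 0.874%, 0.500% and 1.04% for the sham, I/R and SBP groups, again without overlap between I/R and either group. Without Pi16 in the rule the means were 0.417%, 0.327% and 0.707%, and sham and I/R mice overlapped (log2 -0.35, exact permutation p = 0.7). Counting members that scored as fibroblasts alone, the means were 1.31%, 0.969% and 1.76%, and sham and I/R mice overlapped (exact permutation p = 0.2). Sham and I/R mice also overlapped with at least 3 adventitial genes required (log2 -0.57, exact permutation p = 0.2). Under each of these 3 rules every SBP share was above every sham share (exact permutation p = 0.1 each). Fewer cells of this kind and fewer UMIs of the defining genes per cell cannot be told apart, and Pi16 itself stood lower in I/R than in sham members. Cd248, Dpp4 and Sema3c overlapped between sham and I/R members. Dpp4 stood at 257, 282 and 360 CPM in SBP members, above every sham and I/R mouse.

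Beside other fibroblasts of the same heart, members carried more RNA of several matrix and surface protein genes and less of genes of resting interstitial fibroblasts. Because the members were chosen by expression in these nuclei, these differences describe the choice and carry no test. Other fibroblasts had to score as fibroblasts by marker genes, while members did not. The part of this in the differences was not tested. Of 6685 genes measured, 170 (2.54%) were higher in members in all 9 mice and 277 (4.14%) were lower in all 9.

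Among the genes outside the rule, Cmah, which encodes the enzyme that converts N-acetyl- to N-glycolylneuraminic acid, had the highest median log2 difference at 2.81 (range over mice 1.29 to 3.76), with means of 121 CPM in members and 15.1 CPM in other fibroblasts. Ano3, of the anoctamin family, followed with a median of 2.30 and a wide range of 0.08 to 3.72, and Efhd1, a mitochondrial calcium-binding protein gene, with 2.17 (1.24 to 2.95). Tmeff2 (1.96), the syntrophin gene Sntb1 (1.84), Limch1 (1.81), Papln (1.80) and Tmem100 (1.80) came next. Matrix and receptor genes completed the 12 highest: Has2, a hyaluronan synthase, at 1.77, Efemp1, the matrix protein fibulin-3, at 1.71, the adhesion receptor gene Adgrd1 at 1.49 and Ackr3, a scavenging receptor for the chemokine CXCL12, at 1.48.

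The 8 genes with the most negative differences had medians of -2.91 to -1.41. Kcnip1, an accessory protein of voltage-gated potassium channels, was at 8.91 CPM in members and 86.2 CPM in other fibroblasts, with a median log2 difference of -2.91 (range -4.04 to -2.06). The adaptor gene Blnk (-2.47), Apba2 (-2.32), the ciliary neurotrophic factor receptor gene Cntfr (-1.78), the glutamate receptor gene Gria4 (-1.48) and the sodium leak channel gene Nalcn (-1.41) were lower too. Hsd11b1, which activates glucocorticoids, and Fmo2, a flavin monooxygenase, both had medians of -1.52. Restricting members to those that scored as fibroblasts left Cmah at 2.40, higher in 9 of 9 mice, while Gria4 was then lower in 8 of 9. Hsd11b1 then stood at -1.20 and Fmo2 at -1.06.

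**Figure D2:**
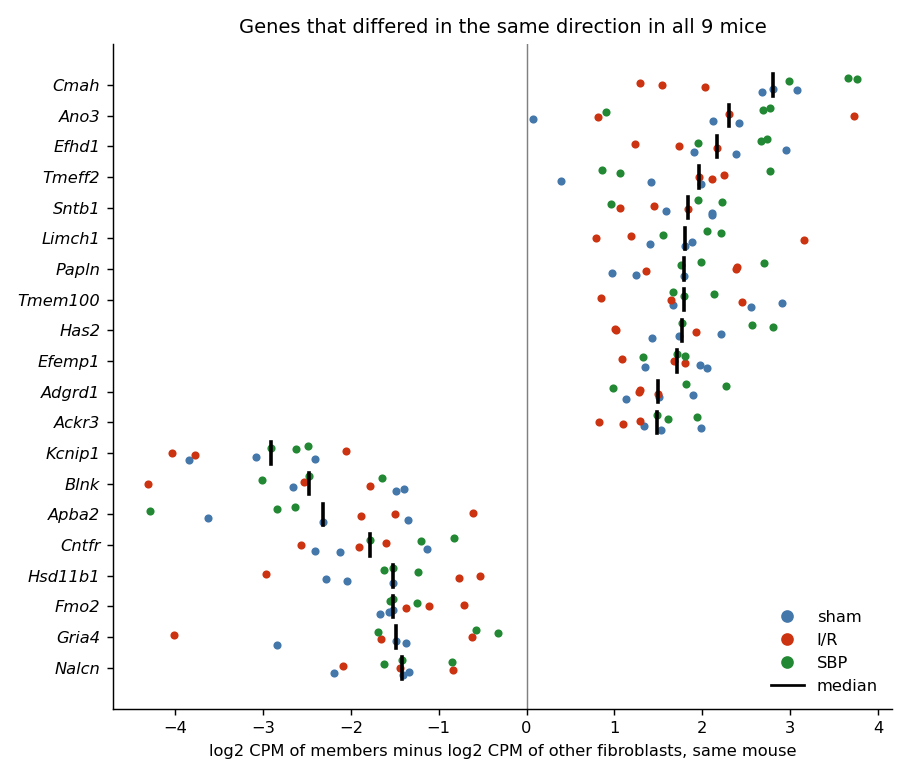
Log2 difference in CPM between members and other fibroblasts of the same mouse for the 12 genes outside the rule with the highest and the 8 with the lowest median difference. Each gene has 9 points, 1 per mouse, coloured by group, and a black bar at their median, which runs from 2.81 for Cmah to -2.91 for Kcnip1.

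Lists of genes with known roles were read in the same way, as a description. These lists were chosen with earlier results of these data known. Of 22 measured genes reported for adventitial or universal fibroblasts (26 listed, none of them in the rule), 13 were higher in members in all 9 mice and none was lower, and the list's median difference was 0.83 against -0.06 over all genes. They included Gfpt2, an enzyme of the hexosamine pathway, at 1.27, the complement regulator Cd55 at 1.16, Ugdh, which makes a precursor of hyaluronan, at 1.05, and the fibrillin gene Fbn1 at 0.93 (1238 CPM in members and 616 CPM in others). Of 18 genes of resting interstitial fibroblasts, 8 were lower in all 9 mice (Col15a1, Hsd11b1, Inmt, Abca8a, Lama2, Mgp, Dpep1 and Gfra1), 1 was higher (Kcnt2), and the median was -0.42. Members that did not score as fibroblasts are included in these list values.

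Other lists were divided. Of 21 collagen and elastic fibre genes, Col14a1 (1.04), Fbn1, Mfap5 (0.92), Emilin2 and Efemp1 were higher in all 9 mice and Col6a3 and Emilin1 lower, with a median of -0.15. Of 14 measured complement, chemokine and interleukin genes, C4b (-1.20), Cxcl1 and Il4ra were lower in all 9 and none was higher (median -0.37). Of 15 growth factor genes, Fgf2 (1.02) was higher, and Bmp4 (-1.19), Tgfb1 and Pdgfd were lower (median -0.04). Of 14 genes of injury-activated fibroblasts outside the rule, Sfrp1 and Has2 were higher and Fap and Thbs1 lower (median -0.17). The glucocorticoid and stress list (13 genes, median -0.15) had Klf9 lower, and the clock list (15 genes, median -0.16) had Dbp and Hlf lower.

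Of the 8 lists of genes examined, the circadian clock list held the most genes that changed in members after I/R. The clock is a loop in which the transcription factors Arntl (BMAL1) and Clock or Npas2 drive Per and Cry genes and Nr1d1 (REV-ERB alpha), whose products repress them in turn, while Dbp, Tef and Hlf are output factors driven by the loop. Of 6380 genes tested with limma, which left out the 21 genes of the rule, 11 (0.172%) passed a Benjamini-Hochberg adjusted p of 0.05 with a log2 fold change beyond 0.25, 5 upward and 6 downward, and 634 had an unadjusted p under 0.05. The values of these 11 genes did not overlap between the groups, as was so for 854 of all the genes tested (13.4%). In these sums per mouse fewer cells carrying a gene and less RNA of it per cell cannot be told apart. The hour at which hearts were taken is not known, nor whether it differed between groups. Its part in the clock genes was not tested.

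Clock genes gave 5 of the 11 calls. Of 14 tested clock genes (19 listed), 1 rose and 4 fell after I/R, 10 had values that did not overlap between the groups, and the list's median log2 fold change was -1.01 against -0.03 over all genes. Arntl, the core activator (chr7:113207465-113314126, plus strand, overlapped on the other strand by Gm45355), stood at 0, 6.19 and 5.84 CPM in sham, 284, 199.8 and 113 CPM in I/R and 56.4, 43.6 and 51.1 CPM in SBP members. Each I/R value was far above every sham value, and the SBP mice lay between the groups without overlap with either. The log2 fold change of I/R against sham was 4.93 ± 0.48 (SE), with a limma adjusted p of 0.000353, and in other fibroblasts it was 3.35 ± 0.40 (adjusted p = 0.0032 by limma).

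The period gene Per3 (chr4:151003652-151044665, minus strand, overlapped by Camta1 on its strand) stood at 174, 281 and 155 CPM in sham, 32.5, 49.95 and 59.6 CPM in I/R and 119, 137 and 136 CPM in SBP members. It was low in all I/R mice and did not overlap with either other group. It fell by 2.02 ± 0.29 on the log2 scale (limma adjusted p = 0.0165). The output factor gene Tef (chr15:81802421-81826863, plus strand, with Gm17597 on the other strand) stood at 261, 315 and 254 CPM in sham, 73.9, 95.7 and 119 CPM in I/R and 179, 174 and 241 CPM in SBP members. Its I/R values lay below all others, and the change against sham was -1.51 ± 0.24 (limma adjusted p = 0.0213).

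Promoter windows of these 3 genes are shown because these are the called clock genes with a match to a clock motif there. The windows run from 250 bases before to 50 after the start in RefSeq (GRCm38.p6), and 16 of the 19 clock genes had one (21 windows). Capitals mark the D-box TTATGTAA in Per3, bound by Dbp, Tef and Hlf, the half-site AGGTCA in Arntl, bound by ROR and REV-ERB factors, and the E-box CACGTG in both Tef windows, bound by Arntl with its partners.
Per3, chr4:151044616-151044915, minus strand: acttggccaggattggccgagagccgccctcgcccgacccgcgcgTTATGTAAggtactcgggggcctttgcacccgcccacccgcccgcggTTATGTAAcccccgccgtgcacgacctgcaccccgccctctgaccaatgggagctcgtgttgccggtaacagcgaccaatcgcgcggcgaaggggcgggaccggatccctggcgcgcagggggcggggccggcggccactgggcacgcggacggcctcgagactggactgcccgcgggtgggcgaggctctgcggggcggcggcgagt
Arntl, chr7:113207261-113207560, plus strand: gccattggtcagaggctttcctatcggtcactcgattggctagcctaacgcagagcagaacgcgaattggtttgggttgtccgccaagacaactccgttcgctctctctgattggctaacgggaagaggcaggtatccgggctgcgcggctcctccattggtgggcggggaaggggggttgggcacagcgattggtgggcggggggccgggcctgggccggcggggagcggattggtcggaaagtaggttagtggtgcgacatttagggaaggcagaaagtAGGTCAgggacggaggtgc
Tef, chr15:81802423-81802722, plus strand: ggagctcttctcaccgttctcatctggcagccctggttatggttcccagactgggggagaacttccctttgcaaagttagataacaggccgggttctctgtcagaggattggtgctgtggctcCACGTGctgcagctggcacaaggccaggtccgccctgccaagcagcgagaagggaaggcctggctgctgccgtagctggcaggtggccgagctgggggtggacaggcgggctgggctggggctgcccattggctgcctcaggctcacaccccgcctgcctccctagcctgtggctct
Tef, chr15:81811164-81811463, plus strand: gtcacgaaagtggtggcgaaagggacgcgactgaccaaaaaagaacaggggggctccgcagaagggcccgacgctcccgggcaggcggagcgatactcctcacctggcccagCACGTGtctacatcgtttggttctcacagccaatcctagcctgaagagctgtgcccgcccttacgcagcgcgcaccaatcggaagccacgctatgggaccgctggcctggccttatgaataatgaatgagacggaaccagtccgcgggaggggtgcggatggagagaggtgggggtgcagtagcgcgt
Searching both strands of all 32851 windows, the E-box was found in 7.15%, the D-box as TTATGTAA or TTATGCAA in 1.66% and the half-site in 16.3%. Of the 16 clock genes, 5 had an E-box, 2 a D-box and 5 the half-site. The Per3 window held 2 D-box matches that do not overlap. These are matches of letters only, and none of the 3 motifs was present in the windows of Dbp and Hlf.

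The other output factors were called too. Dbp (chr7:45705088-45710203, plus strand, with Sphk2 on the other strand) stood at 61.3, 136 and 84.7 CPM in sham, 2.96, 8.33 and 0 CPM in I/R and 21.9, 26.2 and 42.6 CPM in SBP members. I/R members held 3 Dbp UMIs in all, against 85 in sham, 24.0-fold less after scaling, with a counting interval of 7.93 to 119. The groups did not overlap (log2 fold change -3.98 ± 0.58, limma adjusted p = 0.0165). Hlf (chr11:90336536-90390895, minus strand) stood at 76.7, 223 and 169 CPM in sham, 35.5, 20.8 and 39.7 CPM in I/R and 93.9, 151 and 133 CPM in SBP members. Again the I/R mice were the lowest of all, with a log2 fold change of -2.10 ± 0.38 (limma adjusted p = 0.0407).

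**Figure D3:**
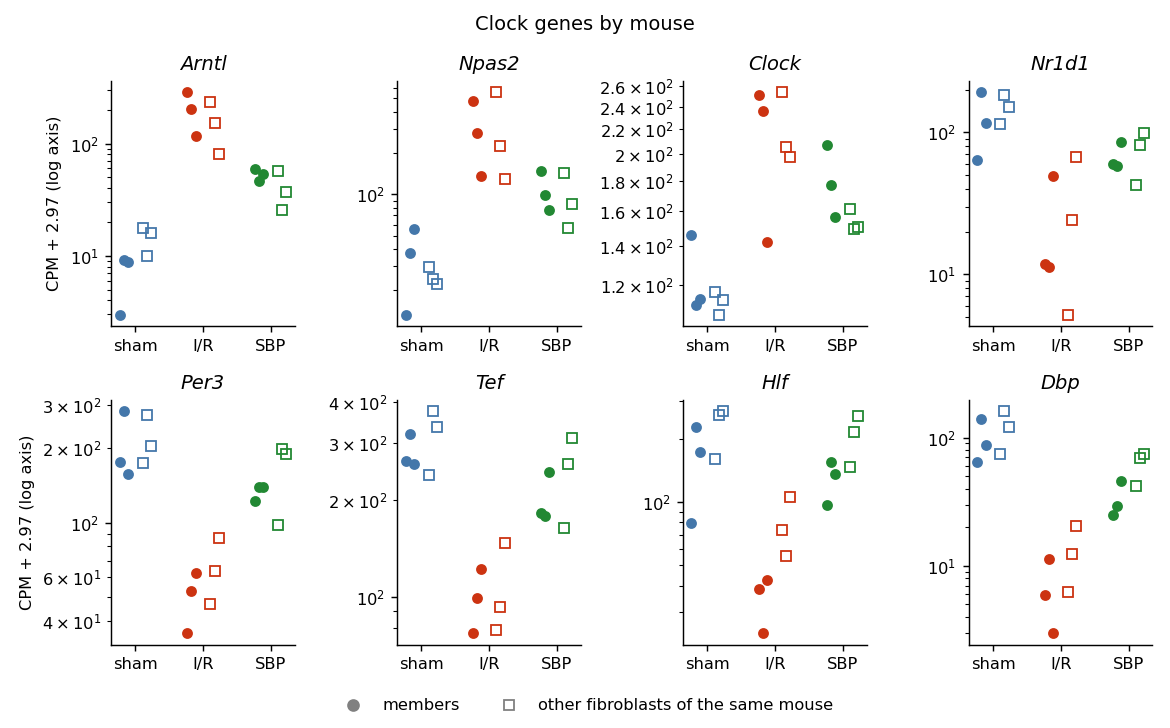
Levels of 8 clock genes on a log axis of CPM plus 2.97 in each mouse, in members (filled circles) and in other fibroblasts of the same mouse (open squares). Arntl and Npas2 are high and Nr1d1, Per3, Tef, Hlf and Dbp low in I/R mice, and the SBP mice lie between sham and I/R for most of them. In members, Arntl ranges from 0 to 6.19 CPM in sham and from 113 to 284 CPM in I/R mice.

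Clock genes that did not pass the test had values as follows. Npas2, the partner of Arntl, stood at 10.2, 34.0 and 52.5 CPM in sham, 473, 279 and 132 CPM in I/R and 144, 95.9 and 73.8 CPM in SBP members (log2 fold change 3.13 ± 0.58, limma adjusted p = 0.0775). Sham and I/R values did not overlap, and in other fibroblasts the change was 3.34 with a limma adjusted p of 0.00552. Npas2 passed in members without I/R replicate 1 or 3, and the receptor genes Nr1d1 and Nr1d2 without I/R replicate 3. Nr1d1 stood at 61.3, 189 and 114 CPM in sham and 8.87, 8.33 and 46.4 CPM in I/R members, also without overlap (log2 -2.59 ± 0.56, limma adjusted p = 0.094). Nr1d2 (-1.49), Bhlhe40 (-1.70) and Rora (-0.40) did not overlap between the groups either. The log2 fold change was 0.73 for Clock, 0.18 for Per1, -0.52 for Per2 and -0.22 for Cry2, all of which failed the test. Ciart, a repressor of the loop that was too low to test, had 10 UMIs in sham members and 0 in those of I/R, at least 2.82-fold lower when 3 UMIs over the I/R group are allowed. Nfil3, which competes with the D-box activators, had 2 UMIs in sham members and 13 in those of I/R, 7.68 times as many after scaling (counting interval 1.74 to 70.1).

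Outside the clock, 4 genes rose. Rhoj, a small GTPase of cell shape and migration (chr12:75308322-75401456, plus strand), stood at 925, 452 and 835 CPM in sham, 1612, 3176 and 2377 CPM in I/R and 1500, 1340 and 1456 CPM in SBP members. Every I/R mouse was above every other mouse, with a log2 fold change against sham of 1.70 ± 0.29 (limma adjusted p = 0.0322). Dapk1, a calcium- and calmodulin-regulated death-associated kinase (chr13:60601947-60763191, plus strand), stood at 179, 210.3 and 251 CPM in sham, 447, 633 and 815 CPM in I/R and 288, 360.3 and 295 CPM in SBP members. Here too the 3 groups were in separate ranges, with I/R highest (1.52 ± 0.24, limma adjusted p = 0.0213).

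Cp, which encodes the copper-carrying ferroxidase ceruloplasmin (chr3:19957054-20009145, plus strand, with Hps3 on the other strand), stood at 465, 257 and 289 CPM in sham, 757, 899 and 914 CPM in I/R and 498, 424 and 343 CPM in SBP members. The I/R mice were the highest, and sham and SBP mice overlapped (I/R against sham 1.38 ± 0.24, limma adjusted p = 0.0322). Acss3, a mitochondrial acyl-CoA synthetase (chr10:106933517-107123668, minus strand, with Ppfia2 on the other strand), stood at 66.4, 49.5 and 32.1 CPM in sham, 133, 341 and 364 CPM in I/R and 119, 174 and 96.5 CPM in SBP members. I/R and SBP values overlapped for this gene, while both lay above sham (I/R against sham 2.36 ± 0.39, limma adjusted p = 0.0322).

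Another 2 genes fell. Cys1, which encodes the cilium-associated protein cystin (chr12:24665833-24681813, minus strand), stood at 158, 216 and 175 CPM in sham, 50.3, 37.5 and 66.2 CPM in I/R and 84.6, 177 and 85.1 CPM in SBP members. The I/R mice were lowest and SBP mice reached into the sham range (I/R against sham -1.80 ± 0.32, limma adjusted p = 0.0386). Ltbp4, a latent TGF-beta binding protein of elastic fibres (chr7:27305136-27337692, minus strand), stood at 317, 383 and 339 CPM in sham, 172, 125 and 99.3 CPM in I/R and 185, 186 and 267 CPM in SBP members. The groups occupied separate ranges in the order sham, SBP and I/R (I/R against sham -1.40 ± 0.24, limma adjusted p = 0.0322).

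**Figure D4:**
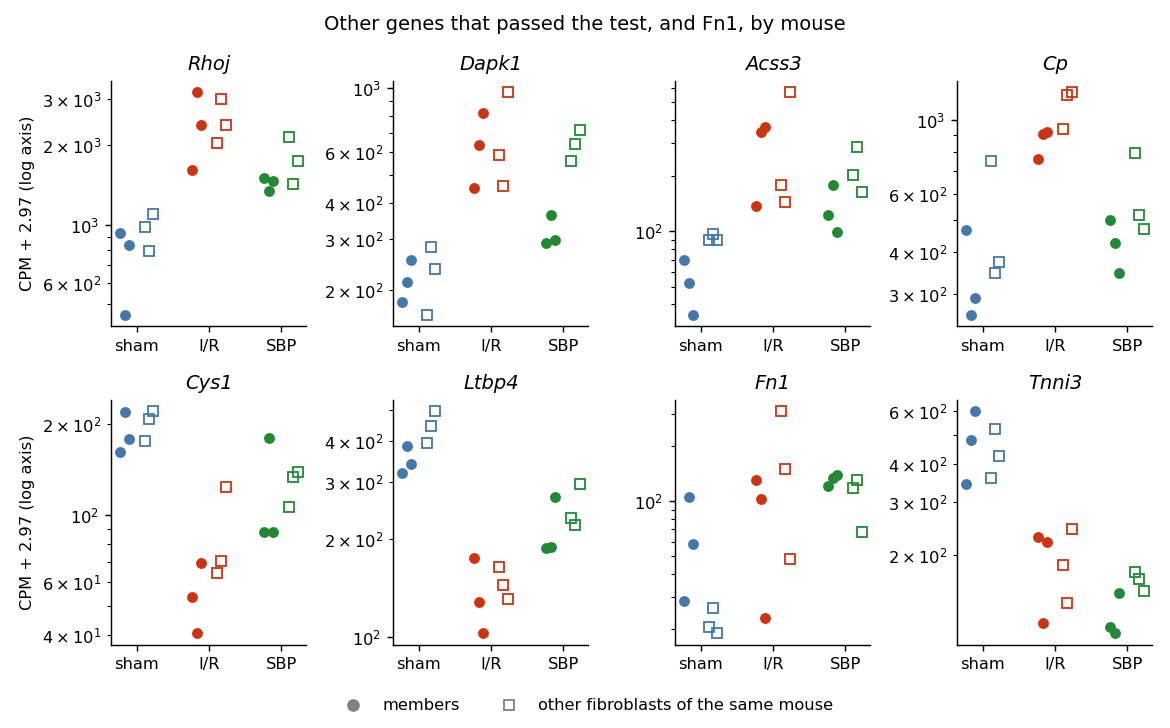
Levels of Rhoj, Dapk1, Acss3, Cp, Cys1, Ltbp4, Fn1 and Tnni3 on a log axis of CPM plus 2.97 in each mouse, in members (filled circles) and other fibroblasts of the same mouse (open squares). Rhoj, Dapk1, Acss3 and Cp are higher and Cys1 and Ltbp4 lower in I/R than in sham members, and Fn1 is higher in other fibroblasts of I/R mice (45.0 to 311 CPM) than of sham mice (15.9 to 23.0 CPM).

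How many genes passed rested on single libraries. Arntl passed in each of the 20 alternative fits that tested it, with log2 fold changes of 3.67 to 5.67 and limma adjusted p of 3.44e-05 to 0.04. Without I/R replicate 1, 134 of 6233 genes passed (65 upward, 69 downward), all 11 among them. Its members had the highest sum of cardiomyocyte markers, and Ttn, Ryr2, Pln and Mhrt were highest there. Myh6, Tnnt2, Actc1 and Mybpc3 were higher in the members of sham replicate 3. Without I/R replicate 3, 18 passed (7 of the 11), and without I/R replicate 2, 6 passed (3 of the 11). Leaving out sham replicate 1, 2 or 3 left 5, 1 and 1 genes, and leaving out SBP replicate 1, 2 or 3, which share the estimate of the spread, left 3, 7 and 1. Among members that scored as fibroblasts, 50 of 4794 genes passed, again with all 11, and genes of cardiomyocytes, such as Tnnt2, Ttn, Mybpc3, Myl2, Myl3, Tnni3, Pln, Actn2 and Cox8b, were among the 30 that fell. The part of cardiomyocyte RNA in these counts was not tested.

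The other lists held 1 further called gene, Ltbp4. Their counts of genes without overlap stand beside 13.4% of all genes tested. Of 22 tested adventitial genes outside the rule, none passed and none had values that did not overlap, and their median log2 fold change was -0.14. Fbn1 was at 1.04 (limma adjusted p = 0.355), Gfpt2 at 0.25, Creb5 at -0.19 and Heg1 at -0.26. The 18 resting fibroblast genes had no call, with Lama2 at 0.12, Kcnt2 at 0.26 and Abca8a at -0.78, and 2 without overlap (Col4a2 higher, Tcf21 lower). Leaving out single mice brought calls in both lists. Adgrd1 rose without I/R replicate 1 (1.40, limma adjusted p = 0.0055), Limch1 fell (-1.17, limma adjusted p = 0.00744), and of the resting genes Gpx3 rose and Abca8a fell. Fbn1 rose without I/R replicate 3 (1.49, limma adjusted p = 0.0138) and Pcolce2 fell (-1.49, limma adjusted p = 0.0272).

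Genes of injury-activated fibroblasts outside the rule (11 of 22 tested) had no call either, and the rule itself limits such genes in members. Lox, the collagen cross-linking enzyme, stood at 0, 3.09 and 0 CPM in sham, 14.8, 74.9 and 79.5 CPM in I/R and 50.1, 14.5 and 28.4 CPM in SBP members, from 1 sham UMI and 35 I/R UMIs (41.3 times as many after scaling, counting interval 6.95 to 1679, limma adjusted p = 0.11). Every I/R and SBP mouse was above every sham mouse. Col8a1, a short-chain collagen of vessel walls, stood at 1308, 1531 and 2280 CPM in sham, 852, 249.8 and 218 CPM in I/R and 705, 450.4 and 636 CPM in SBP members (log2 fold change of I/R against sham -2.19 ± 0.48, limma adjusted p = 0.149). All sham mice were above all others. Both passed without I/R replicate 1, Lox at 4.39 (limma adjusted p = 0.0146) and Col8a1 at -2.82 (limma adjusted p = 4.4e-05). Lox also passed without the limit on injury genes and with either other filter on low values, and Col8a1 in members that scored as fibroblasts (-2.37, limma adjusted p = 0.0459).

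Of 21 collagen and elastic fibre genes, Ltbp4 fell and 4 did not overlap. Eln, the elastin gene, stood at 158, 64.9 and 149 CPM in sham, 497, 483 and 225 CPM in I/R and 225, 183 and 227 CPM in SBP members (1.69 ± 0.36, limma adjusted p = 0.094). Its I/R values lay above all sham values but overlapped with SBP. Col5a2 was at 0.76 and Col1a1 at 1.36, with I/R replicate 3 at 46.4 CPM of Col1a1 and the other I/R mice at 204 and 420.4 CPM. Eln passed in members that scored as fibroblasts (1.83, limma adjusted p = 0.029). Eln, Col1a1, Col5a3 and Fbn1 rose without I/R replicate 3, and without I/R replicate 1 Fbn2 did.

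Of 13 tested complement, chemokine and interleukin genes none passed, 3 did not overlap, and the median was 0.71. C1s1, a protease of the first complement component, was at 1.44 (limma adjusted p = 0.068), C4b at 1.89 (0.135), the interleukin-4 receptor gene Il4ra at 1.91 (0.238) and the interleukin-1 receptor gene Il1r1 at 1.20. Without I/R replicate 1, C1s1 (1.55, limma adjusted p = 0.0251), C4b, Serping1 and Il1r1 rose, and C1s1 passed in members that scored as fibroblasts as well. Of 15 tested growth factor genes none passed, and among those without overlap Fgf2 (-0.96) and Pdgfd (-0.56) were lower and Tgfbr1 (0.33) higher. Tgfbr2, which encodes the type II receptor of TGF-beta, stood at 286, 195 and 169 CPM in sham, 213, 758 and 1026 CPM in I/R and 420 CPM, 256 CPM and 346 CPM in SBP members. Sham and I/R overlapped through I/R replicate 1 (1.37, limma adjusted p = 0.441), without which Tgfbr2 rose (2.04, limma adjusted p = 0.00113).

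Of 13 tested glucocorticoid-responsive and stress genes none passed, 6 did not overlap, and the median was 1.01. Serpina3n, an acute-phase protease inhibitor, stood at 10.2, 0 and 11.7 CPM in sham, 29.6, 216 and 192 CPM in I/R and 72.0, 49.4 and 25.5 CPM in SBP members (3.75, limma adjusted p = 0.135). It rose without I/R replicate 1 (4.62, limma adjusted p = 0.00185) and in members that scored as fibroblasts (4.18, limma adjusted p = 0.0132). The metallothionein gene Mt2 was at 3.83 (limma adjusted p = 0.238). Their sham reference includes replicate 2, in which Mt2 and Serpina3n were at 0 and Zbtb16 stood at 436 CPM against 3639 and 2078 CPM. Saa3, an acute-phase apolipoprotein gene too uneven to test, had 0 UMIs in sham members and 91 in I/R members, and these came to 0, 366 and 19.9 CPM in the 3 I/R mice.

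**Figure D5:**
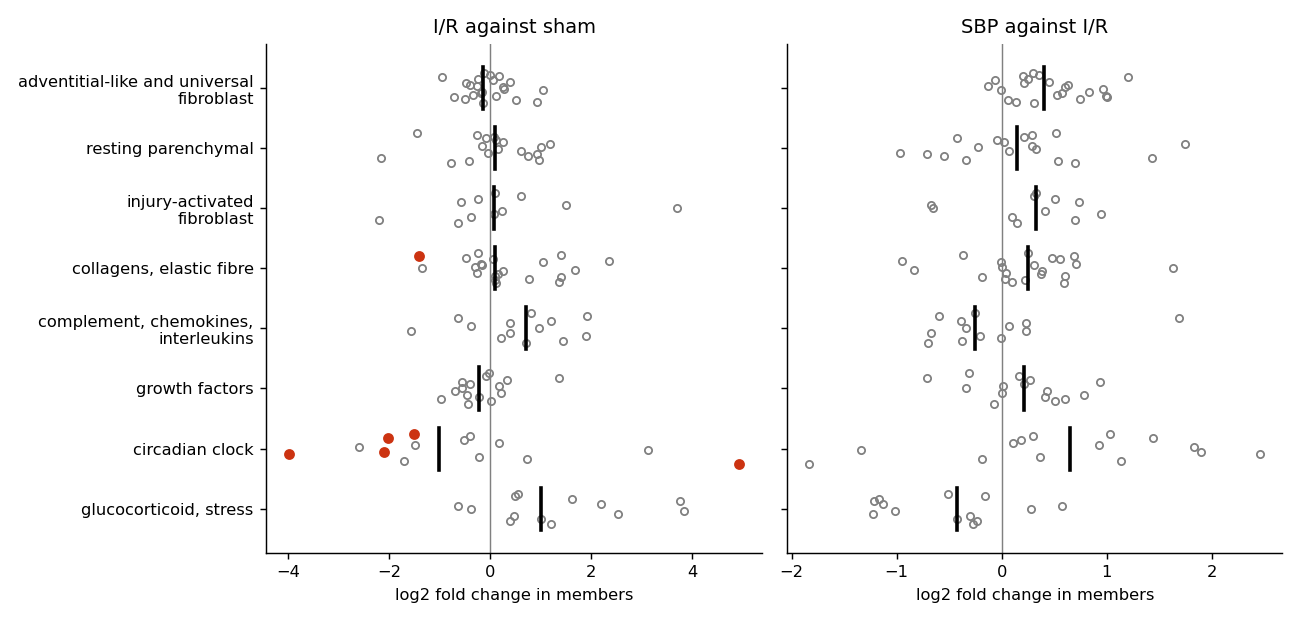
Log2 fold change in members of the tested genes of 8 lists, for I/R against sham and SBP against I/R. Each point is 1 gene, filled red if it passed the test and open grey if not, and bars are list medians. The clock list has the lowest median for I/R against sham (-1.01) and the highest for SBP against I/R (0.64).

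Markers of other cells were read by group as well. Summed myeloid markers (9 of 9 detected, none at 0) ranged from 143 to 429 CPM in sham, 245 to 874 CPM in I/R and 199 to 517 CPM in SBP members. All groups overlapped. In other fibroblasts this sum was 217 to 272 CPM in sham, 475 to 945 CPM in I/R and 266 to 470 CPM in SBP mice. Spp1, which encodes osteopontin and is abundant in macrophages of injured hearts, had 0 UMIs in sham members and 305, 20.8 and 66.2 CPM in I/R members (limma adjusted p = 0.0521). Of its I/R UMIs, 103 came from replicate 1 and 15 from the other mice, and without replicate 1 the level was at least 11.0-fold higher than in sham with 3 UMIs allowed over the sham group (limma adjusted p = 0.0838). Among members that scored as fibroblasts Spp1 passed (4.31, limma adjusted p = 0.029), as it did in other fibroblasts (5.13, limma adjusted p = 0.00914). Summed markers of smooth muscle cells and pericytes (6 of 6 detected) were 216 to 312 CPM in sham, 49.95 to 199 CPM in I/R and 72.6 to 108 CPM in SBP members, without overlap between sham and the others. Much of this was Abcc9, at 204, 179 and 152 CPM in sham, 127, 12.5 and 106 CPM in I/R and 31.3, 32.0 and 48.3 CPM in SBP members. Notch3 overlapped between sham (30.7, 68.0 and 23.4 CPM) and I/R members (14.8, 29.1 and 72.8 CPM). In other fibroblasts the sum was 178 to 213 CPM in sham, 84.5 to 132 CPM in I/R and 122 to 137 CPM in SBP mice. The members' fibroblast markers were 3767 to 5207 CPM in sham, 4540 to 7040 CPM in I/R and 4798 to 6139 CPM in SBP mice. The part of these other cells in the changes above was not tested.

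SBP against I/R asks whether the pill altered the members of injured hearts. It shares the I/R mice with the comparison above, so a mouse that stands apart there moves both. None of 6380 genes passed by limma (0%), 297 had an unadjusted p under 0.05, and limma with voom weights also called 0. The smallest adjusted p was 0.441 by limma, shared by Fam114a1, Hlf and Per3. Values did not overlap between the groups for 602 genes (9.44%).

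The genes with the smallest p are given as values. Fam114a1 stood at 133, 176 and 143 CPM in sham, 101, 117 and 79.5 CPM in I/R and 235, 209 and 221 CPM in SBP members, a log2 difference between SBP and I/R of 1.16 ± 0.23. SBP mice were the highest and I/R mice the lowest, and the 3 groups did not overlap. Hlf differed by 1.90, Per3 by 1.44 and Tef by 1.03 between SBP and I/R, and Cp by -1.03, with limma adjusted p of 0.441, 0.441, 0.775 and 0.775. Of the 14 clock genes, 6 had values that did not overlap between SBP and I/R (Dbp, Tef, Hlf, Nr1d1 and Per3 higher with SBP, Arntl lower), and the list's median was 0.64 against 0.06 over all genes. Of 22 adventitial genes, 5 did not overlap, all higher with SBP (Cd34, Clec3b, Pcolce2, Creb5 and Timp2), with a median of 0.40. The median was -0.43 for the glucocorticoid and stress list and -0.25 for the complement list, and neither had a gene without overlap. Without I/R replicate 1, 2 genes passed, the basement membrane-associated hemicentin gene Hmcn1 (2.03) and the zinc transporter gene Slc39a14 (-1.98), both with a limma adjusted p of 0.0381.

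SBP against sham compared injured hearts that had received the pill with uninjured ones. By limma 2 genes passed (0.0313%), and 429 had an unadjusted p under 0.05. Values did not overlap for 1030 genes (16.1%). Arntl rose by 3.09 ± 0.48 on the log2 scale (limma adjusted p = 0.0429), with values as given above. Tnni3, the cardiac troponin I gene of cardiomyocytes (chr7:4518305-4524229, minus strand, overlapped by Dnaaf3 on its strand), stood at 342, 476 and 598 CPM in sham, 228, 117 and 218 CPM in I/R and 113, 107 and 148 CPM in SBP members. Sham mice were above all others, and SBP differed from sham by -1.90 ± 0.29 (limma adjusted p = 0.0429). In other fibroblasts the difference was -1.39 (limma adjusted p = 0.0116), and the part of cardiomyocyte RNA in it was not tested. Neither call held without any 1 of the sham or SBP mice, each of which left 0 genes, while leaving out I/R replicate 1 or 2 gave 11 and 6 genes.

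Between SBP and sham, values did not overlap for 11 of 22 adventitial, 9 of 21 matrix and 7 of 14 clock genes, and of these Arntl alone passed. The clock genes were Arntl, Npas2 and Clock, higher with SBP, and Dbp, Tef, Nr1d2 and Per3, lower. Fitted on the 6 samples compared alone, Adgrd1, Fbn1 and Col1a1 rose and Col8a1 fell. Of 21 collagen and elastic fibre genes, 8 were higher in every SBP than in every sham mouse (Col1a1, Col5a1, Col5a2, Col5a3, Col6a2, Fbn1, Fbn2 and Eln) and Ltbp4 was lower, with a median of 0.61 against 0.04 over all genes. Of 22 adventitial genes, 9 were higher (Ly6a, Cd55, Efhd1, Fn1, Creb5, Gfpt2, Fbn1, Adgrd1 and Timp2) and 2 lower (Limch1 and Heg1), with a median of 0.32. Inmt, a methyltransferase of resting fibroblasts, stood at 10.2, 0 and 17.5 CPM in sham and 81.4, 66.8 and 56.8 CPM in SBP members (log2 2.92, limma adjusted p = 0.424).

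Whether members responded otherwise than other fibroblasts was tested by fitting the difference between them within each mouse. Of 6685 genes 0 (0%) passed by limma for I/R against sham, with 401 at an unadjusted p under 0.05, and 0 (0%) for SBP against I/R, with 313. All 11 genes called in members for I/R against sham had a change of the same sign in other fibroblasts, and 10 were called there too, the exception being Acss3 (1.41, limma adjusted p = 0.0862). The smallest adjusted p of the difference among the 11 was 0.713 by limma. Other fibroblasts, with more nuclei and RNA per mouse, had 282 called genes for I/R against sham (120 upward, 162 downward), 0 for SBP against I/R and 68 for SBP against sham.

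Fn1, the fibronectin gene (chr1:71585520-71653200, minus strand), came nearest to a difference and is named for that, after its values were seen. In members it stood at 25.6, 102 and 55.5 CPM in sham, 127, 99.9 and 19.9 CPM in I/R and 119, 131 and 136 CPM in SBP mice. In other fibroblasts it stood at 17.4, 23.0 and 15.9 CPM in sham, 311, 148 and 45.0 CPM in I/R and 115, 128 and 65.0 CPM in SBP mice. Sham and I/R thus overlapped in members and did not in other fibroblasts. The change after I/R was 0.27 ± 0.66 in members (limma adjusted p = 0.935) and 2.61 ± 0.54 in other fibroblasts (limma adjusted p = 0.0264), and the difference between these changes was -2.34 ± 0.39 with a limma adjusted p of 0.0699. It passed in 5 of 18 alternatives, with a range of -3.17 to -1.97 over all 18 and limma adjusted p of 0.00209 to 0.706. The rule of at least 3 adventitial genes, which left 1 I/R mouse, is not among them. Without sham replicate 1 it was -2.82 with a limma adjusted p of 0.00209.

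Cmah, the gene outside the rule with the highest upward difference between members and other fibroblasts, had the smallest p of the difference for SBP against I/R, and was likewise chosen after its values were seen. It stood at 169, 216 and 143 CPM in sham, 85.8, 49.95 and 33.1 CPM in I/R and 72.0, 157 and 165 CPM in SBP members. I/R mice lay below all sham mice, and SBP replicate 1 lay within the I/R range. In other fibroblasts Cmah stood at 23.7, 23.0 and 17.8 CPM in sham, 18.8, 15.3 and 11.7 CPM in I/R and 6.47, 8.82 and 10.3 CPM in SBP mice. The difference between the changes was 1.85 ± 0.39 (limma adjusted p = 0.775), of which the change in members was 1.19 (limma adjusted p = 0.911). The change of I/R against sham in members was -1.67 (limma adjusted p = 0.094).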

How the data were processed

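Nuclei from frozen hearts of 9 mice were analysed. The authors deposited, for each library, natural log values of 10000 times a gene's UMIs over the nucleus's total plus 1, per the file values. They aligned reads to GRCm38 with Cell Ranger 4.0 (STAR) and used Seurat 3.2.0, per the submitters' processing notes, kept nuclei over a minimum of genes, removed mitochondrial genes (0 in the tables), and used DESeq2 for their own tests. The tables held fewer nuclei than the study states, and spatial data were not analysed here. A few list and marker genes are not reported here.

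UMIs were recovered from the step of each nucleus's values (within 0.1 of a whole number for over 99% of values). UMIs of members and of other fibroblasts were summed per mouse, scaled by trimmed mean of M values factors and tested as log2(CPM + 2.97), the pseudocount being 1 UMI in the median library, so fold changes of low genes are understated. Genes needed 29.7 CPM (10 UMIs in the median library) in 3 samples and 15 UMIs in all. limma 3.58.1 (R 4.3.3) with trend and robust variance fitted all 9 samples, and a gene was called where its p, adjusted after Benjamini and Hochberg, was at most 0.05 and its log2 fold change beyond 0.25. The fit was used in place of a count model on deposited counts because the deposited unit was a natural log. The replicate is the mouse. Shares were compared by the exact permutation test. Scrublet in Scanpy 1.11.5 marked 84 nuclei as doublets (0.171%, 0 members), too few to have worked, so no nucleus was removed and the nuclei of highest score (2168, of which 13 were members) were left out in an alternative.

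The members and lists were chosen with earlier results of these data known. Genes were named by rule: all called genes up to 10 per direction, the 5 smallest p where none was called, called and 2 to 4 abundant uncalled genes per list, and the 12 highest and 8 lowest differences from other fibroblasts of 1 sign in all mice. List genes named because their values did not overlap were chosen after their values were seen. Alternatives were other membership rules, denominators, depths, scalings, pseudocounts, filters and fits, voom weights, a replicate block, and each sample left out. Positions are from GENCODE vM21, motifs from RefSeq promoter windows. Python 3.11.15, NumPy 2.4.6, pandas 2.3.3, SciPy 1.17.1 and matplotlib 3.10.9 were used.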

Additional observations from a re-analysis of the deposited data

How the results depend on the processing

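The shares of members were lower in I/R than in sham hearts and higher in SBP than in I/R hearts under the 15 alternatives computed for each, with log2 ratios of -1.08 to -0.35 and 0.62 to 1.11. The mice did not overlap in 12 and in all 15 of them. Members beside other fibroblasts alone, where I/R mice overlapped with both other groups, are not among the 15. The alternatives among the 15 that left out 1 mouse could not overlap or change direction, because the full groups did not overlap. SBP against sham turned from 0.19 to -0.34 as a share of fibroblast nuclei and to -0.24 when those were also thinned, an alternative chosen after seeing the data, as were the rules without Sema3c or Pi16. It was 0.76 without Pi16, 0.53 with at least 3 adventitial genes and 0.43 in the fibroblast class, without overlap and at an exact permutation p = 0.1 each. Leaving out 1 mouse gave -0.92 to -0.44, 0.63 to 1.11 and 0.11 to 0.29 for the 3 contrasts as a share of all nuclei. As a share of fibroblast nuclei, where these are not among the 15, it gave -1.30 to -0.63, 0.29 (without I/R replicate 3) to 0.97 and -0.44 to -0.18.

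Called genes were few and moved with the settings. For I/R against sham the 11 became 0 with at least 3 adventitial genes, where at least 10 such nuclei were left in 6 samples and only in 1 I/R mouse, replicate 1, so that this 0 does not show that calls were lost. They became 50 in the fibroblast class, 22 and 24 with the filter at 5 UMIs or none, 7 with voom weights, 1 in the 6 samples compared and 1 to 134 with 1 mouse left out. For SBP against I/R they stayed at 0 except for 2 without I/R replicate 1 (range 0 to 2). For SBP against sham the 2 became 0 with at least 3 adventitial genes, 15 in the fibroblast class, 0 with a pseudocount of 1 CPM, 1 with 4 UMIs, 1 with voom weights, 38 in the 6 samples compared and 0 to 11 with 1 mouse left out. For the difference from other fibroblasts in I/R against sham, 0 became 2 without the injury limit, 1 in the fibroblast class, 1 with library size alone, 1 with no filter and 0 to 1 with 1 mouse left out. Fewer genes or samples enter the stricter rule and the smaller fits, and for the rest the cause was not tested. Among the genes that passed, those with the smallest p and the difference of Fn1, no direction changed.

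The replicate numbers did not pair the samples (correlations of the 9 same-numbered pairs -0.27 to 0.04). With the replicate block 4 genes passed for I/R against sham, 0 for SBP against I/R and 0 for SBP against sham, and 0 for both differences from other fibroblasts. Depth limits the rest: 1 UMI was worth 6.90 CPM in the smallest sum of members and 2.80 CPM in the largest.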

Other observations

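The adventitial genes were not confined to the members. Dpp4 was detected in 10.6% of 11523 endothelial nuclei against 1.85% of other fibroblasts, and Sema3c in 20.8% of 120 Schwann cell nuclei. At least 2 of the 4 adventitial genes were detected in 3.63% of injury-activated fibroblasts and in 2.03% of smooth muscle and pericyte nuclei. Nuclei that met every clause except the limit on injury genes numbered 21 with 3 such genes, 8 with 4, 5 with 5 and 2 with all 6, and all 36 scored as fibroblasts.

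In the members of sham replicate 2, Errfi1, an inhibitor of the EGF receptor, stood at 30.9 CPM against 475 and 339 CPM in the other sham mice, and Per1, a clock gene that glucocorticoids also induce, at 34.0 CPM against 153 and 90.5 CPM. Slit3, an axon guidance ligand that was chosen after its values were seen, stood at 1216, 1082 and 1465 CPM in sham, 1053, 3576 and 3265 CPM in I/R and 2336, 2534 and 2092 CPM in SBP members. The difference between its change after I/R in members and in other fibroblasts was 0.70 ± 0.16, with an adjusted p of 0.713 by limma.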
